A study of Homo sapiens with 7 samples.

Results

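The 3 libraries described here hold the poly-A RNA of heart muscle cells that had received a scrambled antisense oligonucleotide (ASO). Such a strand is made to match no transcript and serves as the control for one that does. They were chosen by their treatment label and are 3 of the 7 libraries of the series; the other 4 received an ASO against MYH7B and were not used. The cells were cardiomyocytes grown from the human induced pluripotent stem cell line WTC-11 with small molecules, kept for 35 days to mature, and then exposed to 2 uM of the ASO for 96 h without a transfection step. All 3 cultures therefore come from 1 cell line and carry an ASO, and no untreated culture was among them. The labels do not say whether the cultures came from separate differentiations, so every SD measures only the spread between these 3 samples.

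Cardiomyocytes made from stem cells start out resembling embryonic heart muscle. During development the ventricular chambers replace several sarcomere proteins by ventricular forms, the atria keep others, and both exchange fetal for adult isoforms while metabolism moves from glucose towards fatty acids. Atrial identity depends on nuclear receptors such as NR2F2, ventricular identity on factors such as IRX4 and HEY2, and pacemaker cells express the HCN channels. Levels are given in TPM (a transcript abundance corrected for length and scaled to a fixed library sum), so genes can be ranked within a library, and the sum of each library is 1000000 TPM.

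Mitochondrially encoded genes took 33.0%, 33.2% and 27.4% of TPM in replicates 1 to 3. Between 15701 and 16207 genes per library reached 1 TPM, and 13668 of 60234 did so in all 3. The signal recognition particle RNAs RN7SL1 and RN7SL2 together took 5.09% of replicate 1, 1.61% of replicate 2 and 0.901% of replicate 3. Among protein-coding nuclear genes, 61.2% reached 1 TPM and 32.4% reached 10 TPM in all 3 libraries, which is the background for the counts of list members below. Their median level was 4.89 TPM.

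The cells carried the marks of cardiomyocytes at a high level. MYL7, the atrial regulatory light chain of myosin (chromosome 7, 44138864 to 44141332), had 4784, 4993 and 5837 TPM in replicates 1 to 3. Only 8 nuclear genes had a higher mean level than its 5204 ± 557 TPM (SD, n = 3). TNNT2, the cardiac troponin T (chromosome 1, 201359008 to 201377762), had 1103, 1287 and 1324 TPM and rank 96. MYH6, the alpha myosin heavy chain (chromosome 14, 23381990 to 23408277), had 954, 1555 and 998 TPM and rank 100. MYL4, the atrial essential light chain (chromosome 17, 47200446 to 47223679), had 907, 953 and 1269 TPM and rank 110. MYH7, the beta myosin heavy chain (chromosome 14, 23412738 to 23435718), had 1207, 1146 and 535 TPM and rank 116. MYL7 stood above the other 4 markers in every library, whereas the ranges of TNNT2, MYH6, MYL4 and MYH7 overlapped and their order was not resolved by the replicates. Positions are from GENCODE 29, build GRCh38. MYH6 and MYH7 are close paralogs, as are the actin genes, and how the authors divided shared reads is not given in the sources used here.

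The promoters of selected sarcomere genes are shown, and these are not simply the most abundant ones. MYL7 and ACTC1 led the sarcomere list, while ACTA1, the skeletal actin, was near its end. Each line gives the 150 bases before the annotated start, 5′ to 3′, from RefSeq on GRCh38.p14, with any CArG box in capitals. A CArG box is the element that serum response factor binds, and its pattern was searched on both strands.
MYL7 (chr7:44141333-44141482, minus strand): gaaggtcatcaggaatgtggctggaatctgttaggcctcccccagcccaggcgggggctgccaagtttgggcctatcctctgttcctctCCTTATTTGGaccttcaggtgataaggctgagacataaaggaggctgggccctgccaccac
ACTC1 (chr15:34795550-34795699, minus strand): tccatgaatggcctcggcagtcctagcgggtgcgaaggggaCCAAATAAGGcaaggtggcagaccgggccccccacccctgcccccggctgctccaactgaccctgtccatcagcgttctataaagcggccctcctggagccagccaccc
ACTA1 (chr1:229434095-229434244, minus strand): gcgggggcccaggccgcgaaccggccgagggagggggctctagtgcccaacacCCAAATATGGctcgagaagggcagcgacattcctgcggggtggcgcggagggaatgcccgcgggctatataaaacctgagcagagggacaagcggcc
TNNT2 (chr1:201377681-201377830, minus strand): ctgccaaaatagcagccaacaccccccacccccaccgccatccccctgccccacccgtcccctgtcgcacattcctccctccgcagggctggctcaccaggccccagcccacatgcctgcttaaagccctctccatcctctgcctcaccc
MYH6 (chr14:23408274-23408423, minus strand): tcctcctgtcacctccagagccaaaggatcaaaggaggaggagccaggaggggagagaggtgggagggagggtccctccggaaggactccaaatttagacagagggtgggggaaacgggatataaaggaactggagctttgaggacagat

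ACTC1 has further annotated starts, and the one shown was picked because it holds the box. Of the 24 sarcomere genes, 16 had an entry in the promoter table, with 24 starts in all. A CArG box lay within 250 bases before 6 of these 24 starts (25.0%), in ACTA1, ACTC1, LDB3, MYL7 and MYOM1, against 1.16% of all 35116 starts in the table. The TATA motif TATAAA, on either strand, was present before 12.5% of the sarcomere starts and 10.7% of all starts. The GATA motif AGATAA was present before 25.0% and 9.17%, and the TEAD motif CATTCC before 20.8% and 11.9%. These matches describe the letters in the windows and do not show binding. The box was present before both ACTC1 and ACTA1, whose mean levels were 3647 and 28.3 TPM, and absent from the printed windows of TNNT2 and MYH6. TPM1, with a mean of 2521 TPM above those of TNNT2 and MYH6, was not printed and is not among the genes with a box.

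Of the 20 most abundant nuclear genes, 11 encode ribosomal proteins. The other members were RN7SL2, EEF1A1, RN7SL1, GAPDH, TPT1, MYL7, H19, FP671120.7 and ACTC1, so MYL7 and ACTC1 were the sarcomere genes among them. EEF1A1, the elongation factor that carries aminoacyl-tRNA to the ribosome, had 8790, 8383 and 8707 TPM and led the protein-coding nuclear genes. GAPDH, a glycolytic enzyme, had 5500, 6927 and 5765 TPM. TPT1, an abundant translationally controlled protein, had 4986, 5406 and 5311 TPM, close to MYL7. H19, an imprinted long noncoding RNA of fetal tissues, had 3478, 3435 and 6201 TPM and was the tenth of the nuclear genes, with replicate 3 well above the other two. IGF2, the fetal growth factor imprinted together with H19, had 1842, 1611 and 1675 TPM, with no such gap. The 100 most abundant nuclear genes took 27.9%, 26.7% and 27.6% of all TPM. RN7SL2, with 33145, 11470 and 6550 TPM, was the highest nuclear entry by mean, but it and RN7SL1 have many near-identical copies and differed more between replicates than any other gene in the top 20.

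**Figure D1:**
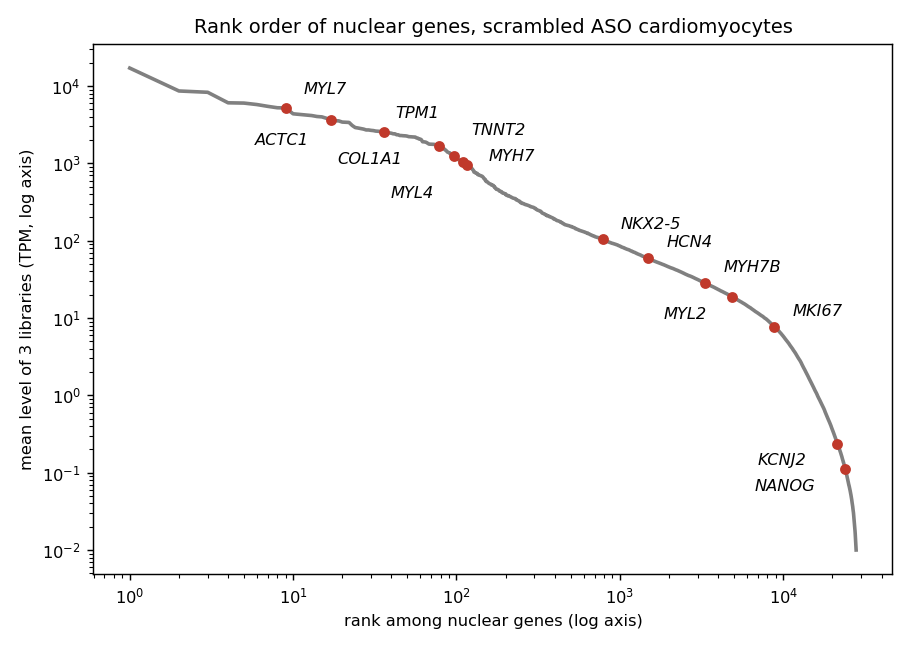
Mean level (TPM, log axis) of every nuclear gene above 0.01 TPM against its rank (log axis), over the 3 scrambled ASO libraries, with 14 genes marked. MYL7 is at rank 9, NKX2-5 at rank 786, MYH7B at rank 3339 and MYL2 at rank 4886, and KCNJ2 and NANOG lie in the tail below 1 TPM.

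All 24 genes of the sarcomere list reached 10 TPM in the 3 libraries, and the list as a whole took 1.87%, 2.04% and 2.03% of TPM. The list median was 204 TPM, and 16 genes reached 100 TPM in every library. ACTC1, the cardiac actin of the thin filament, had 3583, 3629 and 3730 TPM, and its CV of 2.05% was the lowest of the list. TPM1, the tropomyosin that lies along that actin, had 2277, 2582 and 2703 TPM. TNNI1, the slow skeletal and fetal inhibitory troponin, had 1106, 1302 and 1186 TPM, at the level of TNNT2. TNNC1, the calcium-binding troponin subunit, had 658, 569 and 687 TPM. CSRP3, a Z-disc LIM protein, had 376, 355 and 426 TPM. Among thick filament and scaffold genes, MYBPC3 (myosin-binding protein C) averaged 133 ± 23.5 TPM, ACTN2 (alpha-actinin) 200.1 ± 25.2 TPM and TTN (titin) 33.4 ± 6.54 TPM (SD, n = 3 each). The lower end of the list was TTN, ACTA1, LMOD2 and MYL2, all under 41 TPM in every library.

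**Figure D2:**
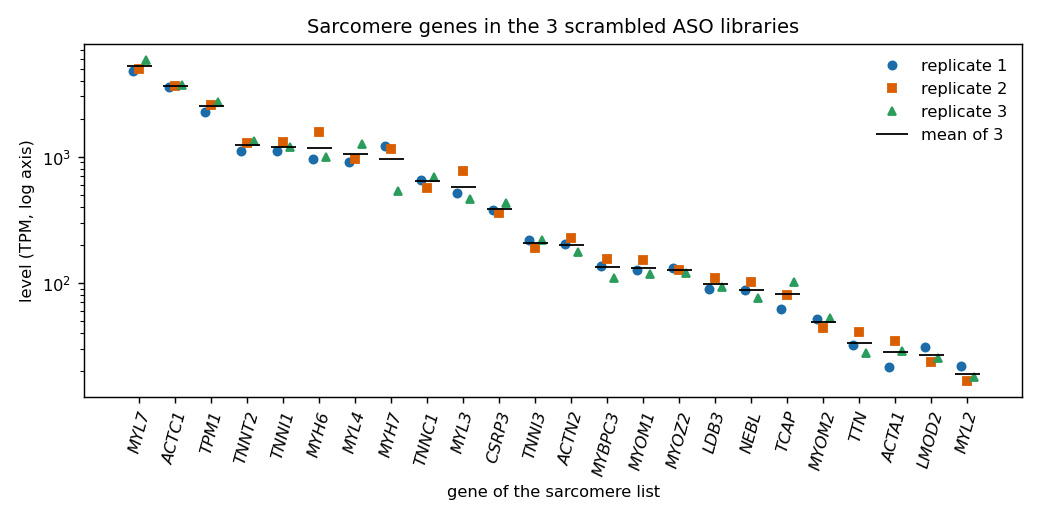
Level (TPM, log axis) of the 24 sarcomere genes in each scrambled ASO library, ordered by mean, with a black line at the mean of 3. Points for a gene mostly sit close together, and the widest gap is that of MYH7, where replicate 3 has 535 TPM against 1207 and 1146 TPM.

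The cardiac transcription factors were all present. All 12 genes of that list reached 1 TPM and 11 reached 10 TPM in every library, with a list median of 59.9 TPM. GATA4, a zinc-finger factor required for heart formation, was the highest at 146, 153 and 166 TPM. NKX2-5, the cardiac homeobox factor, had 109, 101 and 102 TPM, and HAND2 had 107, 103 and 94.9 TPM. TBX20, a T-box factor of the developing heart, had 87.7, 110 and 46.2 TPM, so that replicate 3 was lower than the other two. HAND1, a factor of the early left ventricle, had 8.86, 11.97 and 8.91 TPM and was the lowest of the list. MYH7B, the locus targeted in the series, had 23.0, 36.5 and 25.1 TPM and rank 3339 of the nuclear genes.

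Chamber state was read from 7 gene pairs, each as the log2 ratio of the gene taken as ventricular to the gene taken as atrial. Each ratio was formed within a library after adding 1 TPM to both. A ratio is described as lying on one side of 0 when the 3 libraries had the same sign and the mean was over 2 SD from 0. No p-value is given, because an exact sign-flip test of 3 libraries cannot go below 0.25. MYL2, the ventricular regulatory light chain, had 21.7, 16.7 and 17.95 TPM far below MYL7. The log2 ratio of MYL2 to MYL7 was -7.72, -8.14 and -8.27, a mean of -8.04 ± 0.29 (SD, n = 3) or 264-fold.

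The other pairs did not all point the same way. NPPB was below NPPA, the atrial natriuretic peptide gene, with log2 ratios of -3.84, -5.38 and -4.89. The ventricular factor IRX4, with 8.04, 9.25 and 5.29 TPM, was below the atrial factor NR2F2, with 45.3, 53.1 and 49.1 TPM, at a log2 ratio of -2.58 ± 0.36 (SD, n = 3). HEY2, a factor of the compact ventricle, was above its atrial relative HEY1, at 0.78 ± 0.15 (SD, n = 3). PLN, the phospholamban that restrains the calcium pump, was far above SLN, its atrial counterpart sarcolipin, at 6.76 ± 0.92 (SD, n = 3). SLN itself had 4.20, 8.16 and 13.8 TPM. MYH7 against MYH6 gave 0.34, -0.44 and -0.90, on no one side of 0. MYL3 against MYL4 gave -0.82, -0.32 and -1.45, the same sign in each library but a mean within 2 SD of 0. Of the 7 pairs, 3 lay on the side of the gene taken as atrial, 2 on the other side and 2 on neither. Ventricular chambers replace several sarcomere proteins during development, and the part of maturation in these ratios was not tested.

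The chamber lists gave a mixed picture as well. Of 14 atrial genes, 13 reached 1 TPM in all libraries, with a list median of 19.9 TPM. KCNA5, an atrial potassium channel subunit, averaged 24.6 ± 5.39 TPM and the atrial connexin GJA5 15.8 ± 4.80 TPM (SD, n = 3). BMP10, an atrial growth factor, was under 1 TPM in every library, at 0.60, 0.16 and 0.50 TPM. Of 9 ventricular genes, 8 reached 1 TPM, with a list median of 17.6 TPM. MYL3, the ventricular essential light chain, had 511, 764 and 463 TPM.

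All 10 genes of the nodal list reached 1 TPM and 7 reached 10 TPM, with a median of 20.3 TPM. HCN4, the main pacemaker channel, had 49.1, 71.1 and 57.4 TPM. SHOX2, a homeobox factor of the sinus node, had 33.0, 43.6 and 49.5 TPM. TBX18 had 75.8, 95.7 and 120 TPM and belongs to both the nodal and the epicardial list. ISL1 averaged 9.88 ± 1.07 TPM and TBX3 5.81 ± 1.53 TPM (SD, n = 3). Bulk RNA does not show whether one cell carried atrial, ventricular and nodal genes together or whether separate cells did.

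Maturation was read from 16 further pairs with the gene taken as the adult or muscle form first. Of these, 11 lay on the side of the second gene. Not every second gene is a fetal or general form: ACTC1 is itself the cardiac actin, and KCNJ2 and HCN4 are different channels. TNNI3, the adult cardiac troponin I, had 217, 190 and 218 TPM and was below TNNI1 by 5.73-fold, at a log2 ratio of -2.52 ± 0.22 (SD, n = 3). ACTA1 against ACTC1 gave -6.98 ± 0.32, and MYOM2, an M-band protein of fast and adult muscle, against MYOM1 gave -1.40 ± 0.34 (SD, n = 3 each). All 3 contractile pairs were thus below 0 in every library.

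**Figure D3:**
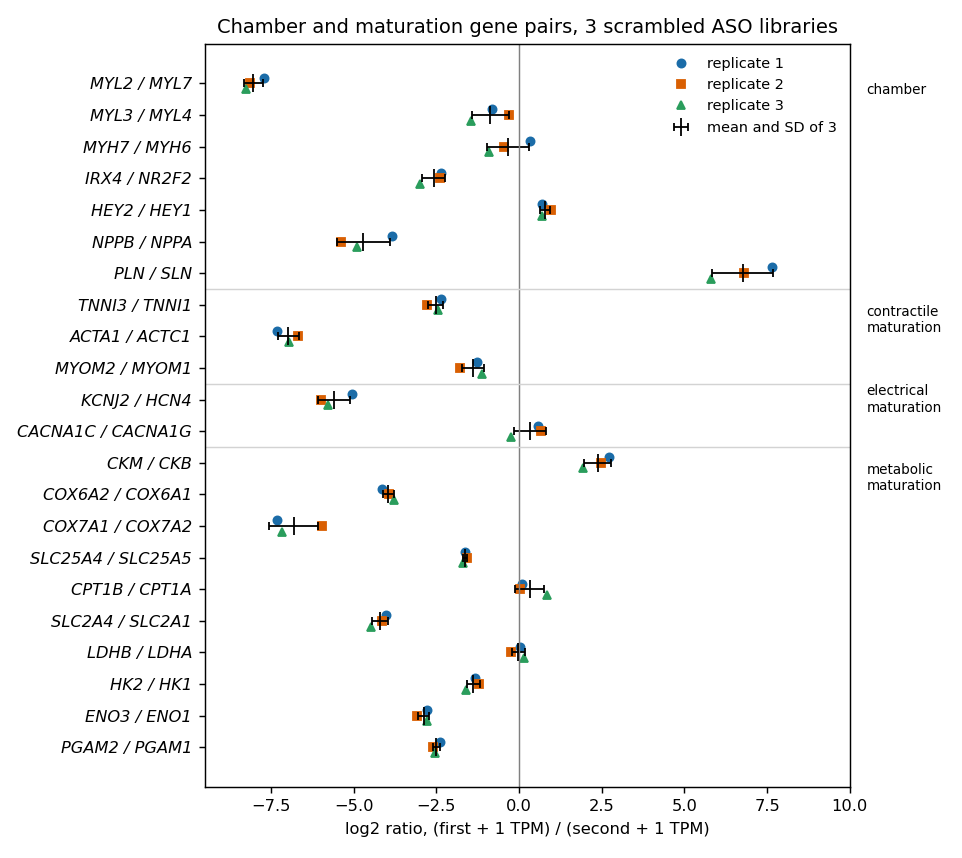
Log2 ratio of the first to the second gene of 22 pairs in each scrambled ASO library, after adding 1 TPM to both, with the mean and SD of 3 in black. Of the 22 pairs drawn, 14 lie below 0, 3 lie above and 5 lie on neither side, with MYL2 to MYL7 at the far left and PLN to SLN at the far right.

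The membrane channels showed a pacemaker channel present and an inward rectifier near 0. KCNJ2, the channel that holds the resting potential of adult ventricular cells, had 0.50, 0.14 and 0.07 TPM. Its log2 ratio to HCN4 was -5.60 ± 0.48 (SD, n = 3). KCND3, a transient outward potassium channel, had 0.11, 0.27 and 0.56 TPM. KCNH2, a repolarising potassium channel, was steadier at 43.7, 51.4 and 45.0 TPM. KCNIP2, an auxiliary subunit of transient outward channels, averaged 41.1 ± 7.27 TPM (SD, n = 3). CACNA1C, the L-type calcium channel of working muscle, against CACNA1G, a T-type channel of fetal and nodal cells, gave 0.57, 0.65 and -0.24, on no one side. Of the 12 channel and pump genes, 10 reached 1 TPM in all libraries. GJA1, the main connexin of working muscle, had 124 ± 41.3 TPM (SD, n = 3).

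Calcium handling genes all reached 1 TPM, 10 of 12 reached 10 TPM, and their median was 74.7 TPM. PLN had 1045, 1032 and 835 TPM and ATP2A2, the calcium pump it regulates, had 361, 464 and 420 TPM. RYR2, the calcium release channel, had 37.9, 37.2 and 27.3 TPM. CASQ2, the cardiac calcium store protein, was low at 6.82, 6.43 and 9.99 TPM, and CAV3, a caveolin of surface membrane and transverse tubules, had 1.01, 1.40 and 2.47 TPM. JPH2, which ties the surface membrane to the calcium store, had 35.5, 36.3 and 35.7 TPM.

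Among the 10 metabolic pairs, 7 lay on the side of the general or fetal isoform. COX7A1, the heart and muscle form of a cytochrome oxidase subunit, had 2.30 and 0.57 TPM in replicates 2 and 3 and was listed at 0 in replicate 1, against 160 to 223 TPM for its widespread form COX7A2. COX6A2, another muscle subunit, was below COX6A1 by 15.5-fold. The insulin-responsive glucose transporter SLC2A4 had 19.7, 22.6 and 13.9 TPM, against 332, 419 and 333 TPM for SLC2A1, the transporter of fetal heart. SLC25A4, the muscle adenine nucleotide carrier, was below SLC25A5 at -1.63 ± 0.05 (SD, n = 3), the tightest ratio of all 23. The muscle enolase ENO3 was below ENO1 at -2.89 ± 0.17, and the muscle mutase PGAM2 below PGAM1 at -2.51 ± 0.11 (SD, n = 3 each). HK2 was below HK1 at -1.38 ± 0.20 (SD, n = 3). The exception was CKM, the muscle creatine kinase, with 404, 467 and 339 TPM, above CKB by 5.19-fold. LDHB against LDHA and CPT1B against CPT1A lay on no one side of 0. Widespread forms are also carried by cells other than cardiomyocytes, and the part of cell mixture in these ratios was not tested.

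Glycolysis genes all reached 10 TPM and 10 of 12 reached 100 TPM in every library, with a median of 593 TPM. ENO1, ALDOA, LDHA and LDHB averaged 2472 ± 373, 2206 ± 384, 944 ± 129 and 925 ± 8.10 TPM (SD, n = 3). The fatty acid list had a median of 22.1 TPM and 9 of 10 genes at 1 TPM. FABP3, the heart fatty acid binding protein, had 462, 493 and 428 TPM, while CD36, which takes up fatty acids, had 2.77, 1.28 and 0.71 TPM. HADHA, HADHB and ACADVL, enzymes of mitochondrial beta-oxidation, averaged 123, 110 and 118 TPM. Of the 7 regulators, all reached 1 TPM in every library. PPARGC1A, a coactivator of mitochondrial biogenesis, averaged 14.7 ± 2.81 TPM and ESRRA, a nuclear receptor that it activates, 37.1 ± 7.08 TPM (SD, n = 3).

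Genes used as markers of fibroblasts, smooth muscle and epicardium were detected, with collagen genes the highest. In bulk RNA, fewer cells of a type and less RNA per cell cannot be told apart, and several of these genes are also transcribed in immature cardiomyocytes, so the cells that carried this RNA were not identified. All 11 fibroblast genes reached 1 TPM, 9 reached 10 TPM and the list median was 36.3 TPM. COL1A1, a chain of type I collagen, had 1279, 1506 and 2215 TPM and stood at rank 78 of the nuclear genes, among the sarcomere genes. COL3A1 had 887, 792 and 1618 TPM and COL1A2 603, 613 and 1079 TPM. DCN, the matrix proteoglycan decorin, had 48.9, 38.4 and 139 TPM. POSTN, a matrix protein of activated fibroblasts, had 16.2, 20.8 and 19.0 TPM. The receptors PDGFRA, PDGFRB and DDR2 averaged 23.7 ± 4.01, 20.9 ± 1.70 and 11.6 ± 2.51 TPM, and TCF21, a factor of cardiac fibroblasts, 8.40 ± 1.62 TPM (SD, n = 3 each), far below the collagens of the same list.

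All 7 smooth muscle genes reached 10 TPM, with a median of 70.1 TPM. MYH11, the smooth muscle myosin heavy chain, had 58.6, 74.2 and 77.6 TPM. ACTA2, the smooth muscle actin that embryonic cardiomyocytes also use, had 509, 498 and 645 TPM, TAGLN had 225, 193 and 402 TPM, and CNN1, a calponin, had 172, 168 and 205 TPM. RGS5, a pericyte gene, averaged 56.4 ± 4.60 TPM (SD, n = 3).

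All 8 epicardial genes reached 1 TPM and 4 reached 10 TPM, with a median of 20.2 TPM. ALDH1A2, which makes retinoic acid, had 178, 146 and 175 TPM, WT1, a zinc-finger factor of the epicardium, had 28.2, 57.8 and 43.7 TPM, and BNC1 had 30.04, 24.4 and 37.1 TPM. The mesothelial genes MSLN and UPK3B were lower, at 9.97 ± 5.38 and 9.01 ± 3.44 TPM (SD, n = 3).

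The endothelial, blood, endoderm, skeletal muscle and neural lists each had a median under 1 TPM, though single members of some were higher. Of 10 endothelial genes, 3 reached 1 TPM in all libraries, namely EGFL7, TEK and KDR at 21.8 ± 4.18, 10.6 ± 2.20 and 7.87 ± 1.18 TPM (SD, n = 3). The defining endothelial genes PECAM1, CDH5 and VWF had means of 0.43, 0.42 and 0.11 TPM, and CLDN5 stayed below 0.1 TPM in each library. PECAM1 had 0.0065, 1.12 and 0.16 TPM in replicates 1 to 3. CDH5 had 0.030, 1.06 and 0.18 TPM and VWF 0.028, 0.31 and 0.0046 TPM, so each was highest in replicate 2. In the blood list PTPRC and CD3E were listed at 0 and CD14 stayed below 0.1 TPM, with LYZ the highest at 5.28, 2.62 and 1.72 TPM. In the endoderm and liver list HNF4A and TTR were listed at 0, FOXA2 stayed below 0.1 TPM, and APOA1 at 5.33 ± 1.20 TPM (SD, n = 3) was the one gene to reach 1 TPM in all libraries. In the skeletal muscle list none of 10 genes reached 1 TPM in every library, and MYF5, PAX7 and MYH8 were listed at 0. TNNT3, its highest member, had 0.74, 8.17 and 2.73 TPM. In the neural list NEUROD1 was listed at 0 and SOX1 stayed below 0.1 TPM, while TUBB3 and STMN2 averaged 11.6 ± 4.05 and 10.3 ± 1.20 TPM (SD, n = 3). A value of 0 in such a table says only that the gene was listed at 0.

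Pluripotency genes were low but not all absent. POU5F1, the core stem cell factor, had 2.70, 2.19 and 1.51 TPM and was the one gene of 9 to reach 1 TPM in all libraries. NANOG had 0.12, 0.12 and 0.09 TPM and LIN28A stayed below 0.1 TPM. POU5F1 has several processed copies in the genome, so its reads may be shared. Without replicate 1 the count was 4 of 9 and without replicate 3 it was 2 of 9.

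Proliferation genes were expressed throughout. All 10 reached 1 TPM and 8 reached 10 TPM in every library, with a median of 18.6 TPM. CCNB1, a mitotic cyclin, had 34.8, 38.4 and 34.6 TPM, CDK1, its kinase, 30.3, 26.4 and 24.7 TPM, TOP2A, a topoisomerase of dividing cells, 21.8, 26.9 and 22.8 TPM, and CCNA2 18.3, 26.4 and 17.5 TPM. Which cell type carried this RNA was not tested.

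**Figure D4:**
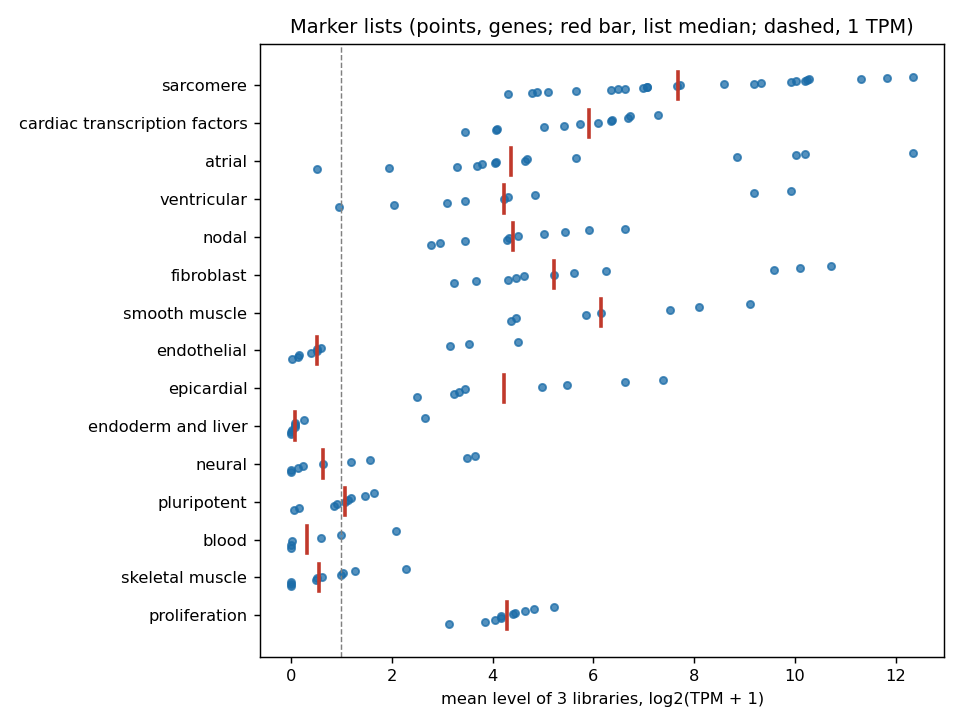
Mean level over the 3 scrambled ASO libraries, as log2(TPM + 1), of each gene in 15 marker lists, with the list median as a red bar and 1 TPM as a dashed line. The sarcomere, smooth muscle and fibroblast lists lie well to the right of that line, and the endothelial, blood, endoderm, neural and skeletal muscle medians lie to its left.

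The replicates differed from each other by a modest amount at most genes. Over the 7723 genes averaging 10 TPM or more, the median SD of log2(TPM + 1) was 0.23 and the median CV was 16.5%. Over the same genes the Pearson correlations of log2(TPM + 1) were 0.936 between replicates 1 and 2, 0.941 between 1 and 3, and 0.957 between 2 and 3. Over all 60234 genes, most of them near 0, they were 0.962, 0.967 and 0.971. These are across genes, which are not independent. The highest library exceeded the lowest by at least 2-fold for 695 of these genes. The share was 12.1% for means from 10 to 30 TPM and 4.53% from 30 to 100 TPM, so a 2-fold gap between libraries was commoner among low genes.

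The steadiest protein-coding genes above 100 TPM, by CV of TPM, were RAB11A, LDHB, LSM14A, EEF2 and AHCY. They are the extremes of 782 genes with 3 values each, and the order was not repeated after median-ratio scaling. The scaling factors of replicates 1 to 3 were 0.964, 0.979 and 1.07, so steadiness in TPM depends on the scale. RAB11A, a regulator of vesicle recycling, had 156.0, 156.1 and 155.9 TPM, and EEF2, a translation elongation factor, had 1698, 1654 and 1690 TPM. The 10 with the widest range were SERPINE2, HLA-B, IGFBP7, NPNT, TM4SF1, PPDPF, MGP, MYH7, CST3 and SPARC, out of 782 genes. SERPINE2, a secreted protease inhibitor, had 102, 56.0 and 176 TPM, a 3.14-fold range. SPARC, a collagen-binding matrix protein, had 1552, 1321 and 2816 TPM, and MGP, a matrix protein that opposes calcification, had 175, 165 and 381 TPM. In 9 of these 10 genes replicate 3 was the highest library, and in MYH7 it was the lowest. Among the 16229 genes averaging 1 TPM or more, replicate 3 was highest for 44.9%, and the share among the 782 was not computed. The 10 were picked by their range in these same libraries, in TPM.

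Replicate 3 was the highest of the 3 libraries for 44.9% of the 16229 genes averaging 1 TPM or more, replicate 1 for 27.5% and replicate 2 for 27.6%. After median-ratio scaling of the libraries the share for replicate 3 was 32.8%, so its excess in TPM depended on the scale. Against this background, replicate 3 was highest in 8 of 11 fibroblast, 6 of 8 epicardial, 6 of 7 smooth muscle and 10 of 13 atrial genes, and in 0 of 8 ventricular genes. With median-ratio scaling these counts were 7, 6, 4, 9 and 0. The sarcomere list went from 10 of 24 genes to 4 under the same scaling. Low counts in TPM were not limited to the ventricular list. Replicate 3 was highest in 0 of 7 metabolic regulators, 1 of 10 membrane channels, 1 of 12 glycolysis genes and 1 of 10 proliferation genes. The choice to look at replicate 3 was made after its values were seen.

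The fibroblast list summed to 2942, 3090 and 5290 TPM, so replicate 3 lay above the other two, which were close. Its median deviation from each gene's own mean was -0.24, -0.26 and 0.45 on the log2(TPM + 1) scale, against -0.06, -0.03 and 0.09 over all genes. Replicate 3 was highest in 8 of the 11 fibroblast genes, including COL1A1, COL3A1 and COL1A2, the members with the highest means. PDGFRA, at 19.8, 27.8 and 23.5 TPM, and POSTN were instead highest in replicate 2. DDR2 was highest in replicate 1, at 13.98, 8.98 and 11.95 TPM. The sum therefore mostly follows the collagens. The ventricular list had deviations of 0.08, 0.28 and -0.21, and the atrial list -0.28, -0.02 and 0.30. Members differed within the ventricular and atrial lists as well. In replicate 3 the ventricular genes MYH7 and IRX4 were lowest, but MYL2 and NPPB were lowest in replicate 2. Of the atrial genes NPPA and SLN were highest in replicate 3, MYH6 and NR2F2 were highest in replicate 2, and HEY1 was lowest in replicate 3. The part of cell mixture in these differences was not tested, and with 3 libraries no correlation is given. Glycolysis and proliferation genes were instead most often highest in replicate 2, in 9 of 12 and 7 of 10 genes. Among all genes averaging 1 TPM or more that share was 27.6%. Replicate 2 was also highest in 6 of 12 cardiac transcription factors, 5 of 8 ventricular genes and 5 of 10 membrane channels. These counts are in TPM and were not repeated after median-ratio scaling.

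**Figure D5:**
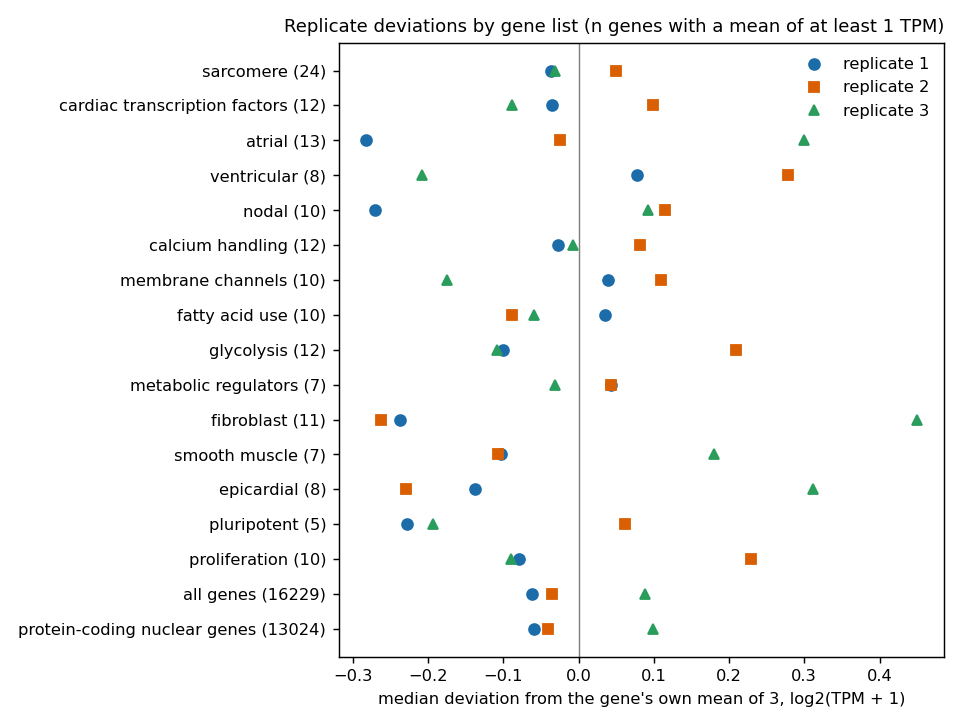
Median, over the genes of each list averaging 1 TPM or more (number in brackets), of each library's deviation from the gene's own mean of 3, in log2(TPM + 1). Replicate 3 (triangles) lies farthest right in the fibroblast, epicardial, atrial and smooth muscle lists and farthest left in the ventricular list. It is also the leftmost library in the membrane channel, cardiac transcription factor, metabolic regulator, glycolysis and proliferation lists. The all-gene medians lie between -0.06 and 0.09.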

How the data were processed

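The authors deposited one table of TPM values for 60234 genes, with a column per library named by its description label, and no other step is recorded per the file headers. Per the submitters' processing notes the build was GRCh38.p13; aligner, quantifier and annotation release are not given in the sources used here. TPM keeps no depth, so no counting interval is given, and precision rests on 3 replicates. Each column summed to 1000000 TPM, and every value column is named by a label. Identifiers without version matched GENCODE 29 for 58072 genes.

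Only the scrambled ASO columns were read. Means, SDs, ranks, CVs and log2 ratios (pseudocount 1) were computed with Python 3.11.15, numpy 2.4.6 and pandas 2.3.3, and the functions were tested on simulated data. No group comparison was made. The 20 gene lists hold 201 genes, 9 of them in more than 1 list; lists, pairs and the samples were chosen with earlier results of these data known. Named were the markers, MYH7B, the 20 most abundant nuclear genes, pair genes, the 4 highest members of each list and those below 0.1 TPM throughout, and, above 100 TPM, the 10 widest and 5 steadiest genes; other members were named after their values were seen, and some genes the rule names are not reported here. Alternatives were other minima, pseudocounts and scalings, and leaving out each library.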

Additional observations from a re-analysis of the deposited data

How the results depend on the processing

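The mean number of genes detected was 16008 at 1 TPM and 10565 at 5 TPM, the one minimum that moved it by over 1.5 times. The median replicate SD of log2(TPM + 1) was 0.198 with a pseudocount of 5, 0.291 for means of at least 1 TPM and 0.191 for means of at least 100 TPM. When single libraries were left out it ran from 0.172 to 0.210. The number of pairs on one side of 0 was 17 under both other pseudocounts and without mitochondrial genes, and 18 when any 1 library was left out, where a mean rests on 2 values. No pair on one side changed sign. Ratios with a gene near 0 depended on the pseudocount: KCNJ2 to HCN4 ran from -7.65 to -3.60 and COX7A1 to COX7A2 from -8.48 to -5.08. Without mitochondrially encoded genes levels rose (TNNT2 from 1238 to 1798 TPM), because each library is rescaled to the same sum. The list counts that moved by over 1.5 times were those of the pluripotent, blood, skeletal muscle and endoderm lists, each near the minimum: without replicate 3 the blood count was 2 of 6, without replicate 1 the skeletal muscle count was 1 of 10, and without mitochondrial genes the pluripotent count was 5 of 9. Depth is unknown, which limits what low values and zeros show. No paired analysis was possible because only 1 group was described.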

Other observations

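Long noncoding genes were not part of the lists. Of 15866 such genes, 1067 reached 1 TPM in all 3 libraries. After H19 the most abundant entry was FP671120.7, with 4592, 4609 and 3246 TPM, lowest in replicate 3. It is annotated as a long intergenic noncoding gene on chromosome 21 (8210384 to 8211306), and the origin of its reads was not tested. Others among the 10 highest were SNHG29, SNHG5, GAS5, SNHG6 and ZFAS1, hosts of small nucleolar RNAs, and their levels were read after they were seen. SNHG29 had 1184, 1195 and 1277 TPM, close to TNNT2. GAS5 had 337, 337 and 446 TPM, and SNHG5 had 364, 388 and 555 TPM, with replicate 3 highest in each. SNHG6 was steadier, at 266, 283 and 285 TPM. AC132217.1, annotated as a noncoding transcript overlapping the end of IGF2, had 531, 335 and 566 TPM, and its reads cannot be told apart from those of IGF2 with certainty. AD000090.1, annotated as an antisense gene on chromosome 19, had 636, 667 and 428 TPM, and was lowest in replicate 3.

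The highest single entries of the table were mitochondrial. MT-ATP8 had 61359, 41145 and 45200 TPM and MT-CO1 had 38558, 48964 and 39382 TPM. MT-ATP8 spans only 207 bases, and how the length correction treated so short a gene is not given in the sources used here. MT-ND6, the protein gene encoded on the other strand of the mitochondrial genome from the rest, had 32549, 36158 and 23047 TPM. Whether the counting used strand is not given in the sources used here, so reads from transcripts of the opposite strand cannot be told apart from those of MT-ND6.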
